A study of Sus scrofa with 6 samples.

Results

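The genes described here are 10 genes of the germline and of primordial germ cells, chosen by name: KIT, KITLG, DND1, NANOS3, PRDM1, TFAP2C, DAZL, DPPA3, TDRD7 and PIWIL2. By symbol 7 of the 10 were found among the 20131 genes of the expression table, and DAZL, DPPA3 and TDRD7 were not analysed here. The samples were pig (Sus scrofa) cells of 2 kinds. The first were pgEpiSC, pre-gastrulation epiblast stem cells labelled as epiblast of embryos at embryonic day 10 (4 libraries). The second were pEF, porcine embryonic fibroblasts labelled as fetal, embryonic day 30 (2 libraries). Total RNA was depleted of ribosomal RNA and sequenced with strand information, and the labels give no genotype, breed, passage or treatment for either group. The series calls its replicates biological, and the labels do not say whether the libraries of a group came from separate embryos or cell lines, so p-values measure the spread between these libraries only.

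Primordial germ cells are the founders of eggs and sperm and are set aside from epiblast cells by BMP and WNT signals. In pig and human embryos the transcription factors SOX17, PRDM1 and TFAP2C are known to act together in that step. The RNA-binding proteins NANOS3 and DND1 then keep the cells alive and hold back somatic transcripts. The receptor KIT and its ligand KITLG (stem cell factor), which somatic cells make, support migration and survival. PIWIL2, DAZL and TDRD7 belong to a later stage, with the piRNA pathway, translation in germ cells and germ granules.

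Values are TPM, a level per transcript length, so that genes can be compared within a library. A complete TPM column sums to 1000000, and these columns fell short of that: the sums ranged from 157288 to 320206 TPM for pgEpiSC and were 93556 and 145611 TPM for pEF. What held the rest is not known, so the deposited values share no common total, and a difference between libraries includes any difference in the part that is listed. TPM keeps no read depth, so the depth behind each value is unknown. The epiblast markers fixed for this check were all at 1 TPM or more on average in pgEpiSC (10 of 10) and 0 of 10 were in pEF, where their summed level did not exceed 0.685 TPM. The fibroblast markers summed to between 854 and 1865 TPM in pEF and to between 4.08 and 13.04 TPM in pgEpiSC. Both groups thus carried the defining markers of their labels. Because the libraries differed in scale, single genes are also given after median-ratio scaling, in which each library is divided by its median ratio to the geometric mean of all libraries. The factors were 0.697, 2.15, 1.61 and 0.722 for pgEpiSC libraries 1 to 4, and 0.569 and 0.944 for pEF libraries 1 and 2.

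Germline genes fell into a set that was expressed in pgEpiSC and a set that was near the floor in both kinds of cell. KIT, DND1, TFAP2C and KITLG averaged 1 TPM or more in pgEpiSC, and KITLG alone did in pEF. NANOS3, PRDM1 and PIWIL2 stayed at or below 0.200 TPM in each of the 6 libraries. As a background, 45.7% of all genes averaged at least 1 TPM in pgEpiSC and 40.5% in pEF, or 55.9 and 50.9% of genes with a symbol. The count of 4 in pgEpiSC rested on replicate 2. Without that library, and likewise after scaling, 2 members (KIT and DND1) averaged 1 TPM.

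**Figure D1:**
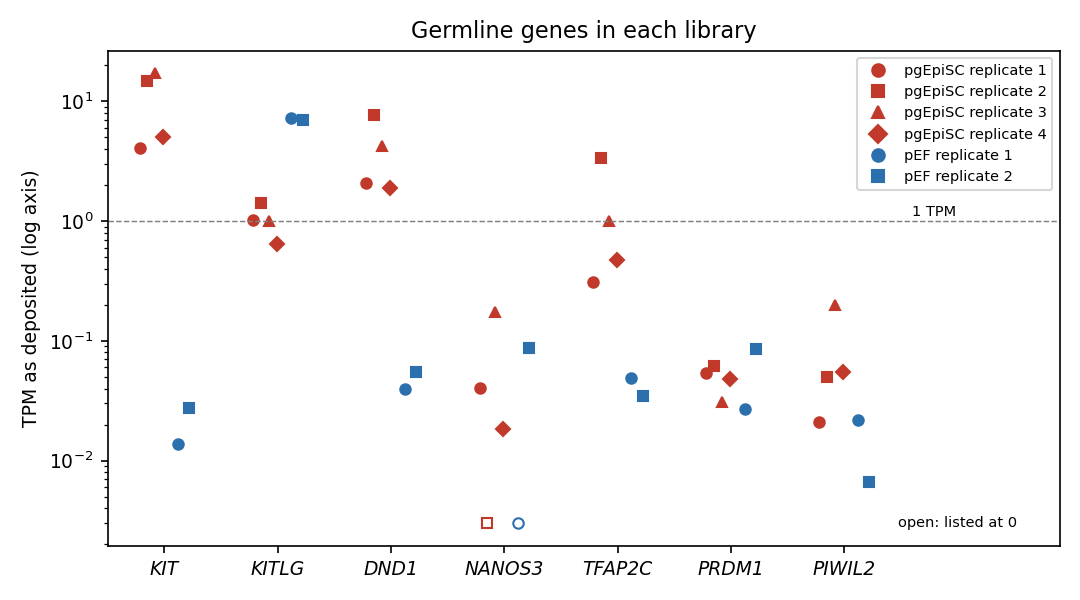
TPM of the 7 germline genes in each library, on a log axis, with pgEpiSC libraries in red and pEF libraries in blue; open symbols are values listed at 0 and the dashed line marks 1 TPM. KIT and DND1 lie above 1 TPM in all 4 pgEpiSC libraries and at or below 0.0550 TPM in both pEF libraries, KITLG is highest in pEF, and NANOS3, PRDM1 and PIWIL2 stay low throughout.

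Of the 7 members, 4 passed the filter of at least 1 TPM in at least 2 libraries and were tested with limma on log2(TPM + 1), a scale that understates the change of low genes. KIT and DND1 were higher in pgEpiSC, KITLG was lower, and TFAP2C missed the threshold, an adjusted p of 0.05 (Benjamini-Hochberg, over the 10424 genes tested). Among all tested genes 18.0% were called higher and 9.43% lower, 27.4% in all. After scaling all 4 were called, TFAP2C as higher, beside 57.9% of all tested genes. With no filter 2 of the 7 members were called (KIT higher and KITLG lower), beside 4.15% of genes higher and 4.61% lower, 8.76% in all. With scaling and no filter 4 of 7 were called, beside 17.4% higher and 20.7% lower, 38.2% in all. KIT, DND1 and TFAP2C had no pEF library at 1 TPM and passed through pgEpiSC alone, so their direction was set by the filter and their number supports nothing. KITLG reached 1 TPM in 3 pgEpiSC and in both pEF libraries. The groups did not overlap for these 4 of the 7 members, as deposited or scaled, beside 44.0 and 58.6% of all genes above 0 in a library. The median log2 fold of the 4 tested members was 1.53, beside 0.48 over all tested genes. Since 3 of the 4 passed through pgEpiSC alone, this median is also set by the filter.

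KIT is the receptor tyrosine kinase of germ cells, melanocytes, mast cells and blood progenitors. It was at 4.08, 14.7, 17.2 and 5.02 TPM in pgEpiSC libraries 1 to 4 and at 0.0136 and 0.0276 TPM in the pEF libraries. The groups did not overlap, as was so for 49.5% of all tested genes, and libraries 2 and 3 were the high ones within pgEpiSC. The log2 fold was 3.24 ± 0.59 (SE; limma, adjusted p = 4.79e-05), and it kept its call with each of the 6 libraries left out (folds from 2.94 to 3.55). The ratio of the TPM means was 498 as deposited and 285 after scaling, and it rests on pEF values near 0.

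The spread of KIT within pgEpiSC followed the scale of the libraries in part. The highest pgEpiSC library had 4.21 times the KIT of the lowest as deposited and 1.82 times after scaling, when the values were 5.86, 6.85, 10.7 and 6.96. Library 3 remained the highest on that scale. The scaled log2 fold was 3.03 ± 0.22 (SE; limma, adjusted p = 1.62e-05).

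Other cell types that carry KIT were looked for by their markers. Melanocyte markers (6 of 6 in the table) summed to between 2.22 and 10.5 TPM in pgEpiSC and to between 1.36 and 6.62 TPM in pEF. The sum came mostly from PMEL, a melanosome matrix protein, at 4.43 ± 3.38 TPM in pgEpiSC (SD, n = 4), and from MLANA at 3.62 ± 3.67 TPM in pEF (SD, n = 2). PMEL was highest in pgEpiSC libraries 2 and 3 (8.22 and 6.34 TPM), as KIT was. DCT, an enzyme of melanin synthesis, was at 0.461, 1.26, 1.21 and 0.592 TPM in pgEpiSC libraries 1 to 4 and at 0.00673 and 0.0442 TPM in pEF. SOX10, a neural crest factor, was at 0.0844, 0.712, 0.313 and 0.0528 TPM against 0.00363 and 0.0207 TPM. PMEL, DCT and SOX10 were thus above pEF in all 4 pgEpiSC libraries and, as deposited, highest in libraries 2 and 3, as KIT was. Those libraries also had the largest scaling factors (2.15 and 1.61), and the markers were not scaled here. Whether these markers share a pattern with KIT beyond library scale was therefore not tested. TYRP1 overlapped between the groups (0.0892 to 0.527 TPM in pgEpiSC), TYR, the tyrosinase of pigment synthesis, did not exceed 0.211 TPM in pgEpiSC, and MLANA was listed at 0 in 3 of the 4 pgEpiSC libraries.

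Mast and blood cell markers (6 of 9 in the table) summed to between 0.520 and 1.45 TPM in pgEpiSC and to between 1.92 and 7.72 TPM in pEF. The highest in pgEpiSC was SPI1, a transcription factor of myeloid cells, at 0.267, 0.875, 0.428 and 0.429 TPM, against 0.129 and 0.148 TPM in pEF. CD34, a marker of blood progenitors and vessels, reached 0.324 TPM in pgEpiSC library 2 and 0.0194 TPM in pEF. SPI1, CD34, PTPRC, HDC and the mast cell gene MS4A2 lay above pEF in every pgEpiSC library as deposited. RUNX1 was the higher in pEF at 4.65 ± 4.07 TPM (SD, n = 2). PTPRC, MS4A2 and HDC did not exceed 0.0521, 0.0637 and 0.0535 TPM in pgEpiSC, and 0.0188, 0.00796 and 0.00246 TPM in pEF. Endothelial markers (5 of 7) summed to between 0.272 and 1.53 TPM in pgEpiSC, most of it TIE1, which reached 1.01 TPM in library 3. The part of these markers in the KIT level was not tested. In bulk RNA, fewer cells with a transcript and less of it per cell cannot be told apart.

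KITLG, the ligand of KIT, ran the other way. It was at 1.02, 1.42, 1.002 and 0.645 TPM in pgEpiSC libraries 1 to 4 and at 7.33 and 7.002 TPM in pEF. Both pEF libraries lay above all pgEpiSC libraries. The log2 fold was -2.03 ± 0.53 (SE; limma, adjusted p = 0.00362), and the ratio of the means, pEF over pgEpiSC, was 7.02 as deposited and 11.2 after scaling. The call was lost without pEF replicate 1 (fold -1.999) and without pEF replicate 2 (fold -2.06). Such fits, here and below, keep 1 pEF library, so a call lost in them does not single out the library left out. After scaling the KITLG call held with each library left out, at folds from -2.92 to -2.28. With all 6 libraries the scaled fold was -2.52 ± 0.25 (limma, adjusted p = 8.10e-05).

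Receptor and ligand were therefore compared within each library, where the scale of the library cancels. Dividing KIT by KITLG gave 4.00, 10.4, 17.2 and 7.78 for the pgEpiSC libraries in order, and 0.00186 and 0.00394 for pEF. KIT exceeded KITLG in all 4 pgEpiSC libraries and KITLG exceeded KIT in both pEF libraries. On the log2 scale the mean ratio was 3.11 ± 0.88 (SD, n = 4) in pgEpiSC and -8.53 ± 0.77 (SD, n = 2) in pEF, a difference of 11.6. The exact two-sided permutation test over the 15 splits of 4 against 2 gave p = 0.0667, the smallest p that this design allows. The groups were already apart for KIT and, in the other direction, for KITLG. Their ratio had to separate the groups too, so this p adds no support. With 1 TPM added to both genes, which limits the weight of KIT values near 0 in pEF, the difference was 5.27.

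Among 23 genes that act downstream of KIT and were in the table, 19 were tested. With limma 0 were called higher and 1 lower, beside 18.0 and 9.43% of all tested genes, and 18 were not called. The median log2 fold was -0.19, beside 0.48 over all genes. The 1 lower gene was GAB1, a docking protein, at 0.489 ± 0.406 TPM in pgEpiSC (SD, n = 4) and 2.94 ± 2.05 TPM in pEF (SD, n = 2). Its log2 fold was -1.34 ± 0.43 (SE; limma, adjusted p = 0.0171), a call lost without pgEpiSC replicate 4 (-1.22, limma adjusted p = 0.0504). GAB1 passed the filter through its 2 pEF libraries alone, so its direction was set by the filter and it was not tested without either of them. The most abundant genes of this list were PTPN11, a phosphatase that relays signals to the RAS pathway, the SRC family kinase FYN and the adaptor SHC1. PTPN11 was at 16.4 ± 8.15 TPM in pgEpiSC and 18.3 ± 8.59 TPM in pEF, and its log2 fold of -0.19 ± 0.53 was not called. FYN was at 4.40 ± 3.76 against 8.56 ± 3.77 TPM and SHC1 at 6.38 ± 4.68 against 8.12 ± 2.78 TPM, also not called. The list depended on scale: after median-ratio scaling 11 of the 19 were called lower, PTPN11, FYN and SHC1 among them, and 1 higher, beside 30.9% and 27.0% of all tested genes.

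DND1 is an RNA-binding protein that protects germ cells from loss and works with NANOS proteins on target transcripts. It was at 2.07, 7.68, 4.22 and 1.89 TPM in pgEpiSC libraries 1 to 4 and at 0.0399 and 0.0550 TPM in pEF. The groups did not overlap. The log2 fold was 2.10 ± 0.53 (SE; limma, adjusted p = 0.00257). Leaving out pEF replicate 1 or 2 ended the call (limma adjusted p = 0.117 and 0.0852), as did testing with no filter (0.0690).

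The scaled values of DND1 were close to each other. They were 2.97, 3.57, 2.62 and 2.62 in pgEpiSC libraries 1 to 4, a coefficient of variation of 15.2%, against 67.9% as deposited. KIT went from 65.1 to 27.9% and TFAP2C from 110 to 60.9%, while KITLG went from 31.0 to 42.7% and PRDM1 from 27.6 to 59.1%. NANOS3 went from 136 to 97.3% and PIWIL2 from 98.3 to 73.5%, on values near the floor. Scaling thus narrowed the spread of KIT, DND1, TFAP2C, NANOS3 and PIWIL2 and widened that of KITLG and PRDM1. The scaled log2 fold of DND1 was 1.88 ± 0.14 (SE; limma, adjusted p = 2.24e-05), called with each library left out. DND1 lay below KIT and above TFAP2C and KITLG in all 4 pgEpiSC libraries.

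**Figure D2:**
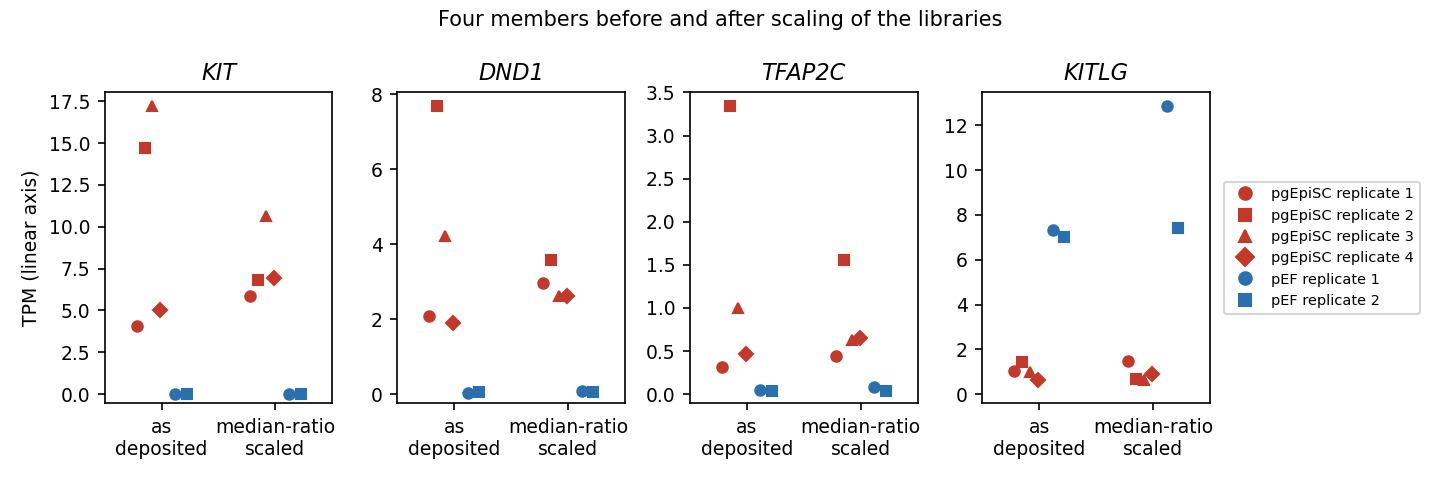
TPM of KIT, DND1, TFAP2C and KITLG in each library as deposited and after median-ratio scaling, on linear axes that differ between panels. The 4 pgEpiSC values of DND1 draw together to between 2.62 and 3.57 after scaling, KIT keeps a high library 3 and TFAP2C a high library 2, and the KITLG values of the 2 pEF libraries move apart to 12.9 and 7.42.

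NANOS3, the zinc finger partner of the Pumilio proteins that primordial germ cells need to survive, did not accompany DND1. It was at 0.0403, 0, 0.173 and 0.0182 TPM in pgEpiSC libraries 1 to 4 and at 0 and 0.0864 TPM in pEF. One library of each group was thus listed at 0, and the groups overlapped. NANOS1, a paralog in the list of RNA-binding partners, and the germline paralog NANOS2 were at most 0.869 and 0.0115 TPM on average in either group (both named after their values were seen).

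The wider list of RNA-binding and deadenylation genes held 26 genes in the table, of which 21 were tested. With limma 5 (23.8%) were called higher, 0 lower and 16 not called, beside 18.0% higher and 9.43% lower of all tested genes. The median log2 fold was 0.96, beside 0.48 over all tested genes. Of the 21 tested, 6 had passed the filter through pgEpiSC alone and 0 through pEF alone, so this median is partly set by the filter. After scaling 9 were called higher and 0 lower, beside 27.0 and 30.9% of all tested genes. Of the 5, 3 had passed the filter through pgEpiSC alone. IGF2BP1, an RNA-binding protein of embryonic cells, was at 32.3 ± 27.9 TPM in pgEpiSC (SD, n = 4) and 2.49 ± 1.18 TPM in pEF (SD, n = 2). MSI1, a Musashi translational regulator, was at 2.68 ± 1.91 against 0.0336 ± 0.0106 TPM. CNOT6 and CNOT10, subunits of the CCR4-NOT deadenylase that NANOS proteins recruit, were at 5.41 ± 2.92 against 0.724 ± 0.256 and at 18.9 ± 8.82 against 5.01 ± 1.48 TPM. CNOT7 and the helicase DDX6, the most abundant of the others, were at 28.8 ± 10.7 and 26.4 ± 9.84 TPM in pgEpiSC and were not called. The log2 folds of IGF2BP1, MSI1, CNOT6 and CNOT10 were 2.93, 1.68, 1.78 and 1.66. The calls of MSI1, CNOT6 and CNOT10 did not hold without either pEF library (limma adjusted p from 0.0805 to 0.318), and those of CNOT6 and CNOT10 also without pgEpiSC replicate 3 (0.0668 and 0.0513). With no filter none of the 4 was called (limma adjusted p = 0.0606 for IGF2BP1, 0.125 for MSI1, 0.0867 for CNOT6 and 0.0672 for CNOT10).

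TFAP2C, an AP-2 transcription factor of germ cell specification and of trophectoderm, varied most among the expressed members. It was at 0.309, 3.34, 1.004 and 0.471 TPM in pgEpiSC libraries 1 to 4 and at 0.0491 and 0.0344 TPM in pEF. The groups did not overlap, but library 2 had 10.8 times the level of library 1, and 3.50 times after scaling. The log2 fold of 0.96 ± 0.39 (SE) had a 95% interval from 0.17 to 1.74 and was not called (limma, adjusted p = 0.0600). After scaling it was 0.74 ± 0.22 and was called (limma, adjusted p = 0.0198), but no longer when pEF replicate 1 or 2 was left out (limma adjusted p = 0.0627 and 0.0889). Without pgEpiSC replicate 2 or 3 TFAP2C fell below the filter and was not tested.

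No other AP-2 gene was expressed beside it. The list held 5 genes in the table and 0 passed the filter. TFAP2A was at 0.00523 ± 0.00478 TPM in pgEpiSC (SD, n = 4), where TFAP2C averaged 1.28 ± 1.40 TPM, and at 0.356 ± 0.240 TPM in pEF (SD, n = 2), where TFAP2C averaged 0.0417 ± 0.0104 TPM. TFAP2C exceeded TFAP2A in all 4 pgEpiSC libraries, in 1 of which TFAP2A was listed at 0, and TFAP2A exceeded TFAP2C in both pEF libraries. TFAP2E was at 0.0979 ± 0.0846 TPM in pgEpiSC. TFAP4, a helix-loop-helix factor that shares only the name, reached 0.951 ± 0.582 TPM. Of 8 trophectoderm markers, KRT7 and TEAD4 were at 1 TPM or more on average in pgEpiSC. KRT7, a simple-epithelial keratin, was at 2.40, 10.7, 3.79 and 1.38 TPM in pgEpiSC libraries 1 to 4, highest in library 2 as TFAP2C was. TEAD4 was highest there too, at 7.49 TPM. Library 2 also had the largest scaling factor (2.15), and these markers were not scaled here. Their part in the TFAP2C level was not tested. The defining trophectoderm factors CDX2 and GATA3 did not exceed 0.0331 and 0.0402 TPM in pgEpiSC.

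PRDM1 (BLIMP1), a repressor that acts beside TFAP2C in germ cell specification, was near the floor in both groups. It was at 0.0540, 0.0622, 0.0306 and 0.0477 TPM in pgEpiSC libraries 1 to 4 and at 0.0268 and 0.0853 TPM in pEF. The groups overlapped. In a fit with no filter its log2 fold was -0.01, with a 95% interval from -0.08 to 0.06 on the log2(TPM + 1) scale, which compresses values this low. Its relative PRDM14, which represses somatic genes in pluripotent and germ cells, averaged 9.95 ± 6.19 TPM over the 4 pgEpiSC libraries (SD). Both pEF libraries listed PRDM14 at 0, and it was called higher in pgEpiSC (limma, adjusted p = 2.46e-05). It had passed the filter through pgEpiSC alone, so its direction was set by the filter. PRDM14 lay above PRDM1 in all 4 pgEpiSC libraries. Of 13 PRDM family genes beside PRDM1, 6 were tested. Among all tested genes 18.0% were called higher and 9.43% lower, and 27.0 and 30.9% after scaling. Of the 6 PRDM genes, 2 were called higher, 1 lower and 3 not called, and after scaling 3 were called higher and 1 lower. The lower gene was MECOM, at 0.244 ± 0.179 against 5.29 ± 1.36 TPM (-2.33 ± 0.43). MECOM passed the filter through pEF alone, which sets its direction.

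Of 28 other genes of germ cell specification and early germ cell identity, 21 were in the table and 15 were tested. With limma 6 (40.0%) were called higher, 1 (6.67%) lower and 8 not called, beside 18.0% higher and 9.43% lower of all tested genes. The median log2 fold was 0.97, beside 0.48 over all tested genes. Of the 15 tested, 8 had passed the filter through pgEpiSC alone and 1 through pEF alone, so this median is partly set by the filter. All 6 higher genes had passed the filter through pgEpiSC alone, which sets their direction. Among the 6 were LIN28A, a regulator of let-7 miRNAs, at 435 ± 294 TPM in pgEpiSC and listed at 0 in pEF, and the homeobox factor NANOG, at 65.01 ± 37.9 against 0.135 ± 0.159 TPM. PRDM14 (above) and the alkaline phosphatase ALPL, at 2.70 ± 2.10 against 0.00743 ± 0.00641 TPM, were also among them. These genes serve pluripotent cells as well as germ cells. ALPL was not called without pEF replicate 1 or 2 (limma adjusted p = 0.198 and 0.151). The 1 lower gene was KLF4, at 0.609 TPM in pgEpiSC and 2.84 TPM in pEF on average (named after its values were seen), and it passed the filter through pEF alone, which sets its direction. After scaling 8 were called higher and 3 lower, beside 27.0 and 30.9% of all tested genes. SMAD1 and ID4 joined KLF4 among the lower genes there (named after their values were seen). SOX17 was not analysed here.

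PIWIL2, a PIWI protein that binds piRNAs, was also near the floor. It was at 0.0211, 0.05004, 0.200 and 0.0554 TPM in pgEpiSC libraries 1 to 4 and at 0.0219 and 0.00657 TPM in pEF. The lowest pgEpiSC library lay within the pEF range, and library 3 was the highest, as it was for NANOS3. In a fit with no filter its log2 fold was 0.09, with a 95% interval from -0.06 to 0.24 on the log2(TPM + 1) scale, which compresses values this low. The ratio of the means, pgEpiSC over pEF, was 5.73 as deposited and 2.80 after scaling, and it rests on values near 0. Markers of later germ cells (6 of 9 in the table) summed to at most 0.157 TPM in pgEpiSC and 0.0241 TPM in pEF. DDX4, the germ cell helicase, did not exceed 0.0582 TPM in any library. MAEL, SYCP3, TDRD1 and NANOS2 were listed at 0 in both pEF libraries and in pgEpiSC library 2. None of these genes exceeded 0.0459 TPM in any pgEpiSC library. Markers of gonadal somatic cells (8 of 9 in the table) summed to at most 0.236 TPM in pgEpiSC and 0.1005 TPM in pEF.

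The piRNA and Tudor list held 28 genes in the table, of which 18 averaged under 1 TPM in both groups. Of the 11 tested, 4 (36.4%) were called higher, 0 lower and 7 not called (limma), beside 18.0% higher and 9.43% lower of all tested genes. The median log2 fold was 0.88, beside 0.48 over all tested genes. Of the 11 tested, 6 had passed the filter through pgEpiSC alone and 0 through pEF alone, so this median is partly set by the filter. Of the 4 called higher, 3 had passed through pgEpiSC alone. After scaling 7 were called higher, 1 lower and 3 not called, beside 27.0% higher and 30.9% lower of all tested genes. The 4 called as deposited were TDRD10, TDRD12, PRMT5 and HENMT1. TDRD10, a Tudor and RNA-recognition protein, was at 1.002, 6.39, 2.12 and 0.647 TPM in pgEpiSC libraries 1 to 4 and listed at 0 in both pEF libraries. TDRD12, a Tudor protein with a helicase domain, was at 1.09, 4.87, 5.80 and 1.69 TPM in pgEpiSC and 0.196 and 0.740 TPM in pEF. PRMT5, the arginine methyltransferase that marks PIWI proteins for Tudor binding and also serves the splicing machinery, was at 15.5 ± 11.4 against 3.84 ± 1.22 TPM. HENMT1, the methyltransferase of piRNA ends, was at 0.881 ± 0.401 against 0.00450 ± 0.00636 TPM. All 4 calls did not hold without either pEF library (limma adjusted p from 0.119 to 0.508), and those of TDRD12 and PRMT5 also without pgEpiSC replicate 3 (0.105 and 0.111). HENMT1 was not tested without pgEpiSC replicate 2 or 4, where it fell below the filter. With the replicate number as a block, TDRD12 and HENMT1 were not called (limma adjusted p = 0.0862 and 0.157). SND1 and WDR77, a partner of PRMT5, were at 16.2 ± 11.6 and 12.1 ± 6.49 TPM in pgEpiSC and were not called, but WDR77 was called higher after scaling (log2 fold 0.83, limma adjusted p = 0.00509).

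Of 26 genes of meiosis in the table, 20 were under 1 TPM on average in both groups. Of the 6 tested, 1 was called higher, 1 lower and 4 not called (limma), beside 18.0% higher and 9.43% lower of all tested genes. The median log2 fold was 0.43, beside 0.48 over all tested genes. After scaling 2 were called higher and 1 lower, beside 27.0 and 30.9% of all tested genes. MSH4, a MutS protein of meiotic crossing over, was at 29.8, 37.8, 42.2 and 31.0 TPM in pgEpiSC libraries 1 to 4 and at 9.26 and 10.9 TPM in pEF. It was the most abundant gene of the list in both groups (log2 fold 1.70 ± 0.49, SE; limma, adjusted p = 0.00790). SYCP2, a component of the synaptonemal complex, was lower in pgEpiSC at 0.621 ± 0.541 against 3.54 ± 0.924 TPM (log2 fold -1.53 ± 0.46; limma, adjusted p = 0.0104). Both calls did not hold without either pEF library (limma adjusted p from 0.0708 to 0.207). After scaling the MSH4 fold was 1.09 (limma, adjusted p = 0.0422), and it was called only without pgEpiSC replicate 2 among the 6 fits with a library left out, while SYCP2 was called in all 6. HSF2BP and YTHDC2, the next most abundant, were at 5.45 ± 3.63 and 4.75 ± 2.63 TPM in pgEpiSC and were not called.

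The 4 lists of specification, RNA-binding, piRNA and meiosis genes held 126 different genes beside the members, of which 101 were in the table and 53 were tested. With limma 16 (30.2%) were called higher and 2 (3.77%) lower, beside 18.0 and 9.43% of all tested genes. Of the 16, 12 had passed the filter through pgEpiSC alone, which sets their direction. Of the 32 genes that reached 1 TPM in a library of each group, 4 were called higher and 1 lower, beside 13.8 and 6.75% of all genes that did so. Without pEF replicate 1 or 2, 4 of the genes tested were called higher and 0 lower each time. With no filter 4 of the 101 genes were called higher (LIN28A, NANOG, PRDM14 and MSH4) and 1 lower (TFAP2A). Among all genes 4.15% were called higher and 4.61% lower in that fit. After scaling 26 of the 53 tested were called higher and 5 lower, beside 27.0 and 30.9% of all tested genes.

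**Figure D3:**
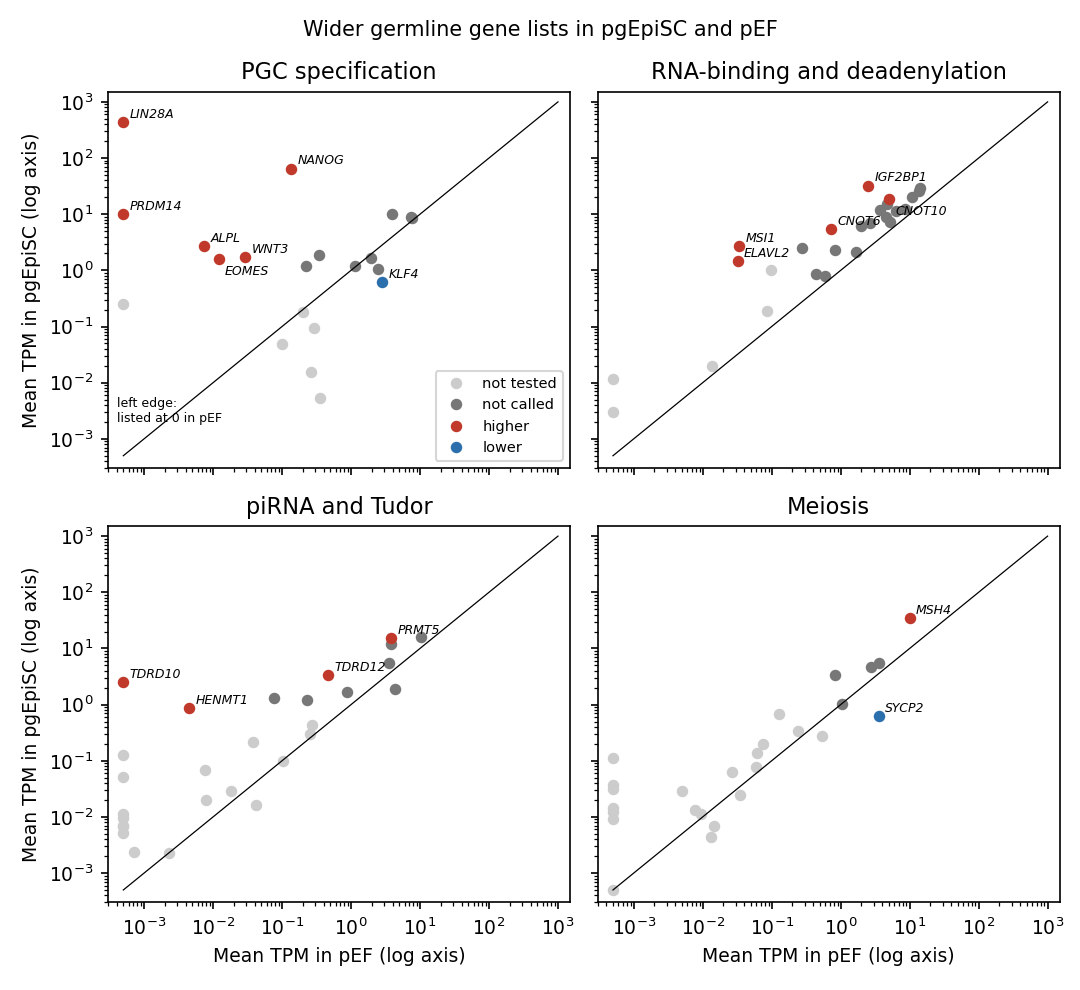
Mean TPM in pgEpiSC against mean TPM in pEF for the genes of the 4 wider lists, on log axes, coloured by the limma call, with genes listed at 0 drawn at the edge and the line of equal level in black. Most genes of meiosis and of the piRNA and Tudor list lie below 1 TPM on both axes, and MSH4 and SYCP2 are the 2 called genes of meiosis.

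The rank of a gene within its library does not depend on the scale of that library. KIT stood at the 84.0, 87.0, 92.3 and 86.0 percentile of all genes in pgEpiSC libraries 1 to 4 and at the 32.8 and 32.9 percentile in pEF. DND1 stood between the 73.3 and 77.8 percentile in pgEpiSC and at 38.3 and 36.7 in pEF. KITLG was between 50.9 and 64.8 in pgEpiSC and at 91.1 and 85.6 in pEF. For these 3 genes the groups were thus apart by rank as by level. TFAP2C was between the 49.9 and 64.5 percentile in pgEpiSC and at 39.3 and 34.0 in pEF, also apart. PRDM1 was between 17.8 and 33.8 in pgEpiSC and at 36.4 and 39.0 in pEF, lower in each pgEpiSC library than in either pEF library, although its TPM overlapped. Ranks this low also depend on how many rows are listed at 0, from 2244 to 3428 in pgEpiSC and 5070 and 4528 in pEF. At 0.0622 TPM PRDM1 ranked at 26.6 in pgEpiSC library 2, and at 0.0268 TPM it ranked at 36.4 in pEF library 1. NANOS3 and PIWIL2 overlapped by rank.

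**Figure D4:**
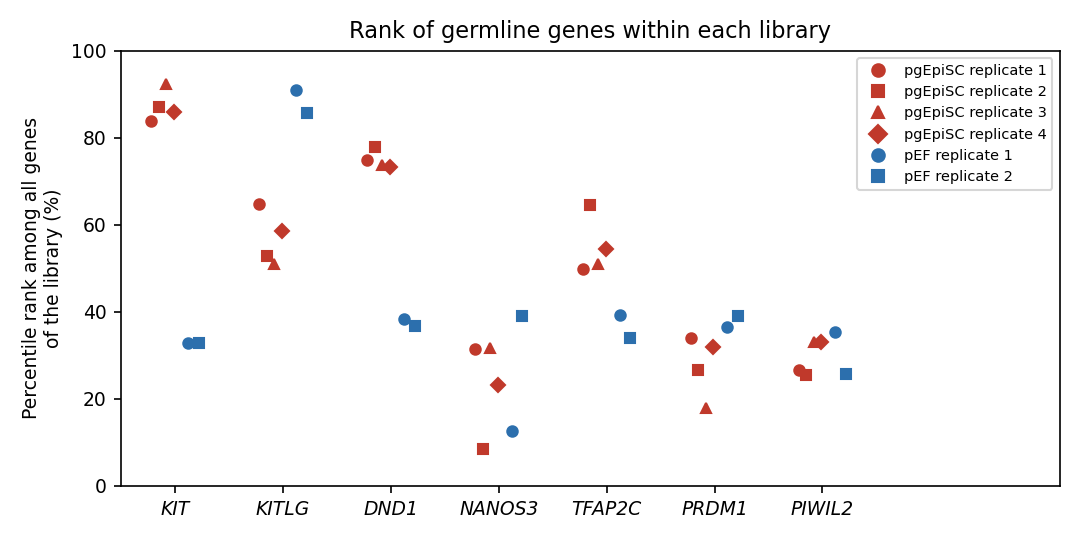
Percentile rank of the 7 germline genes among all genes of the same library, with pgEpiSC libraries in red and pEF libraries in blue. The groups are apart for KIT, DND1 and TFAP2C (pgEpiSC above) and for KITLG and PRDM1 (pEF above), and they overlap for NANOS3 and PIWIL2.

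Within pgEpiSC the order of the mean levels was KIT, DND1, TFAP2C, KITLG, PIWIL2, NANOS3 and PRDM1. KIT was above DND1 and DND1 above TFAP2C in all 4 libraries, although their ranges overlapped across libraries. TFAP2C and KITLG were not ordered, since TFAP2C was the higher in 2 of 4 libraries, and by 1.004 against 1.002 TPM in 1 of these. PIWIL2, NANOS3 and PRDM1 overlapped. In pEF KITLG was above all other members in both libraries, and the remaining 6 lay between 0 and 0.0864 TPM.

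**Figure D5:**
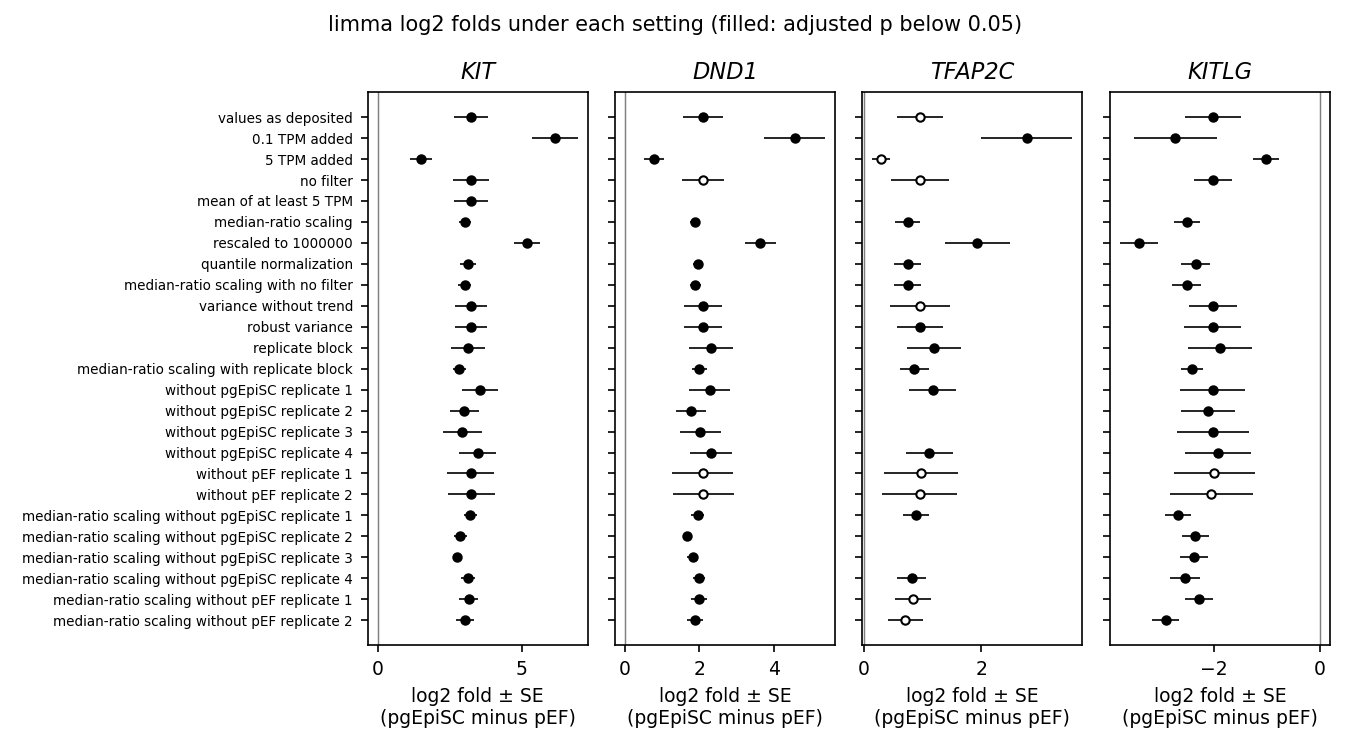
log2 folds (pgEpiSC minus pEF, on the log2 scale, ± SE) of KIT, DND1, TFAP2C and KITLG from limma under each setting tried, with filled points for an adjusted p below 0.05; a missing point means that the gene was below the filter. KIT is filled in every row, DND1 and KITLG turn open without either pEF library as deposited and DND1 also with no filter, and TFAP2C is filled under some settings and open under others, at a positive fold in each.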

How the data were processed

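The authors deposited TPM (named in the file headers) for 20132 gene IDs in 6 libraries. Per the submitters' processing notes, the tools included STAR 2.6.0c and kallisto 0.44.0. Which step each served, which genome build and which annotation is not given in the sources used here. Gene IDs were paired with symbols by a gene name table (14062 rows matched), and rows with the same symbol were summed. Genes at 1 TPM or more in at least 2 libraries were fitted in limma 3.58.1 (R 4.3.3) on log2(TPM + 1), using all 6 libraries, 1 term for group and trended empirical Bayes moderation. Adjusted p-values (Benjamini-Hochberg) cover all tested genes. A check of this fit used data simulated from median-ratio scaled values, so it did not cover the scale differences between the deposited libraries. Scalings used the same tested genes. Median-ratio factors came from genes above 0 in every library. Python 3.11.15 with pandas 2.3.3, numpy 2.4.6 and matplotlib 3.10.9 gave the percentile ranks, ratios and figures.

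The members and the gene lists were chosen with earlier results of these data known. Besides the members, the text names up to 4 called genes of each wider list by absolute fold, up to 3 of the highest mean level in either group, and the most abundant gene of a marker list in each group, and 1 gene that this rule takes is not reported here; other marker genes it gives were chosen after their values were seen. A few genes entered lists by a loose fit, such as TUT1 and CABLES2 in the piRNA list and TFAP4 in the AP-2 list. Alternatives were other pseudocounts, filters, scalings and variance settings, a replicate block and each library left out. No sequences or coordinates are given, since the build is unknown here.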

Additional observations from a re-analysis of the deposited data

Results flagged for a closer look

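After median-ratio scaling, 2 of the 72 sets of 4 pgEpiSC values looked at (36 genes on 2 scales) had a library far from the others, by the gap to the nearest library as a share of the range (Dixon's 95% critical value). Chance gives about 5 such sets in 100. NANOG, a pluripotency and germ cell factor, was lowest in replicate 3 at 35.8 scaled TPM, against 56.03 to 59.3 in the others (gap 0.861 of the range). HENMT1, the piRNA methyltransferase, was highest in replicate 4 at 1.53 scaled TPM, against 0.492 to 0.583 (gap 0.912 of the range). None of the 7 germline members stood out by this measure on either scale.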

How the results depend on the processing

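Of the germline members, 2 were called higher and 1 lower in pgEpiSC. With no filter 1 was called higher, and with a mean of at least 5 TPM 1 higher and 0 lower, since KIT alone was tested there. With libraries left out 1 to 3 were called higher and 0 to 1 lower. KIT was called under each of the 24 alternative settings. Of the wider germline genes, 16 higher and 2 lower as deposited, 6 were higher with 5 TPM added, 4 higher and 1 lower with no filter, 6 and 0 with a mean of at least 5 TPM, 26 and 5 after median-ratio scaling, 29 and 5 after quantile normalization, 25 and 10 after scaling with no filter, and 6 lower when rescaled to 1000000. With libraries left out 4 to 21 were higher and 0 to 3 lower, and after scaling 15 to 24 and 4 to 5. The cause of these moves was not tested. Among all genes tested, the shares called higher and lower were 4.15 and 4.61% with no filter and 27.0 and 30.9% after median-ratio scaling. They were 17.4 and 20.7% after scaling with no filter. With the replicate block 3 members were called higher and 1 lower, and 16 and 1 wider genes, or 22 and 5 after scaling; the numbers gave only 2 pairs (correlations 0.0982 and 0.172), which the labels do not tie to a shared source. In pgEpiSC 1 member averaged 5 TPM, and 2 averaged 1 TPM after scaling; with libraries left out 2 to 4 did. Among genes above 0 the rank difference of DND1 was 39.8 points, against 37.4 among all. With libraries left out, rank differences ran from -15.3 to 11.1 for NANOS3 and from -5.75 to 3.75 for PIWIL2, changing sign. The difference in KIT to KITLG log2 ratio ran from 11.1 to 12.2. Depth is unknown, so no floor could be set for values near 0.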
